A study of Homo sapiens with 4 samples.

Results

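The mRNAs of ARPC2, NCKAP1, PFN1 and ACTA2, genes of actin filament assembly, carried 6 m7G peaks in each of the 2 deposited peak lists of HepG2 cells. They were chosen by gene name, as every peak named for one of these genes, and make up 4 of 3769 genes that have any peak. The list of replicate 1 has 3355 peaks (2511 genes) and that of replicate 2 has 4747 (3205 genes). HepG2 is a human hepatocellular carcinoma line; the cells were untreated, and poly(A) RNA from whole cells was sequenced after pull-down with an antibody against N7-methylguanosine (m7G IP, 2 samples) and as input (2 samples, not analysed here). The authors called as peaks the parts of mRNAs that were enriched in the pull-down, and the fold enrichment and p-value given for it below are the authors' own. The genes were picked with their folds already known, so their folds, positions and presence in both lists are a description, and no test of them is given. The labels do not name separate cultures for the 2 IP samples, and read depth is unknown from the lists, so no counting interval can be set on a fold.

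Actin filaments grow from monomers that profilin, the product of PFN1, hands to growing ends. ARPC2 is a core subunit of the Arp2/3 complex, which starts new branches on the side of existing filaments, and NCKAP1 is a scaffold subunit of the WAVE regulatory complex, which switches Arp2/3 on downstream of the GTPase Rac. ACTA2 encodes smooth muscle alpha-actin, one of the filament subunits themselves, and in liver it is best known as a marker of activated stellate cells. N7-methylguanosine is the cap base at the 5' end of every mRNA made by RNA polymerase II and has also been described at positions inside mRNAs. At peaks that reach the 5' end the cap and an internal m7G cannot be told apart in these lists.

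The sequences around the annotated starts show where the 5' peaks began. Each runs 5' to 3' from 100 nt before the start to the first 30 nt of the gene, from RefSeq (GRCh38.p14), and capitals mark the bases that lay in a peak of that gene in both lists.
NCKAP1, chr2:183038428-183038557, minus strand: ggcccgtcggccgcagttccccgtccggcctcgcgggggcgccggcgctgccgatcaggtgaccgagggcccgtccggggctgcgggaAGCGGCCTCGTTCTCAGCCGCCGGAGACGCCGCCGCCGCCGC
ARPC2, chr2:218217089-218217218, plus strand: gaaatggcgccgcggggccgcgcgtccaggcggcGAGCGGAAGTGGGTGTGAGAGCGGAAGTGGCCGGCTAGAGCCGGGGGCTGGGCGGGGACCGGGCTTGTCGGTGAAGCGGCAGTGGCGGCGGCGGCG
PFN1, chr17:4948501-4948630, minus strand: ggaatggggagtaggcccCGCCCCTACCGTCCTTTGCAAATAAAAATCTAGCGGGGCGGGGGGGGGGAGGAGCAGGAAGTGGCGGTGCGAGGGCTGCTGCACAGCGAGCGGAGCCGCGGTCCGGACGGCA
ACTA2 distal start, chr10:88991308-88991437, minus strand: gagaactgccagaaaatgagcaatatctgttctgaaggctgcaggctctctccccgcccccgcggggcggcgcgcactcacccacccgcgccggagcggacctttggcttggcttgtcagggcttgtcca
ACTA2 proximal start, chr10:88952744-88952873, minus strand: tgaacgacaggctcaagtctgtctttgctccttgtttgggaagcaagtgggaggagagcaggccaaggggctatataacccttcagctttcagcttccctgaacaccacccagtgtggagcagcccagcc
In NCKAP1, ARPC2 and PFN1 the capitals run across the start, with 42, 96 and 112 bases of the window in a peak in both lists. Neither of the ACTA2 windows holds a peak base. The peaks of 3 genes thus began before the annotated start, by 12 nt in replicate 1 and 42 nt in replicate 2 for NCKAP1, by 66 nt in both lists for ARPC2, and by 141 nt in replicate 1 and 82 nt in replicate 2 for PFN1. The whole RefSeq windows of 300 nt had a GC content of 75.3% for NCKAP1, 72.3% for ARPC2, 61.3% for PFN1 and 54.7% for the distal start of ACTA2, set against a median of 58.7% over 35116 windows (interquartile range 47.0 to 68.0%). The motif GANGAN, counted on both strands and with overlaps, was present in 89.2% of all windows, 1 time in those of ARPC2 (either start) and PFN1, 2 times in each ACTA2 window and 0 times in that of NCKAP1. In the first 50 transcribed bases, read on the sense strand only, GANGAN was found in 19.6% of all windows and AAGGT and GAGGT in 3.66% and 5.88%, and these letters occur in none of the 6 windows of the 4 genes. On both strands of the whole window AAGGT occurred in 35.2% of all windows and at the distal ACTA2 start only among the 6, and GAGGT in 47.5% of all and at the PFN1 start, the proximal ACTA2 start and a second ARPC2 start. The windows hold at most the first 50 nt of the mRNA, so the parts of the peaks further downstream were not searched.

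**Figure D1:**
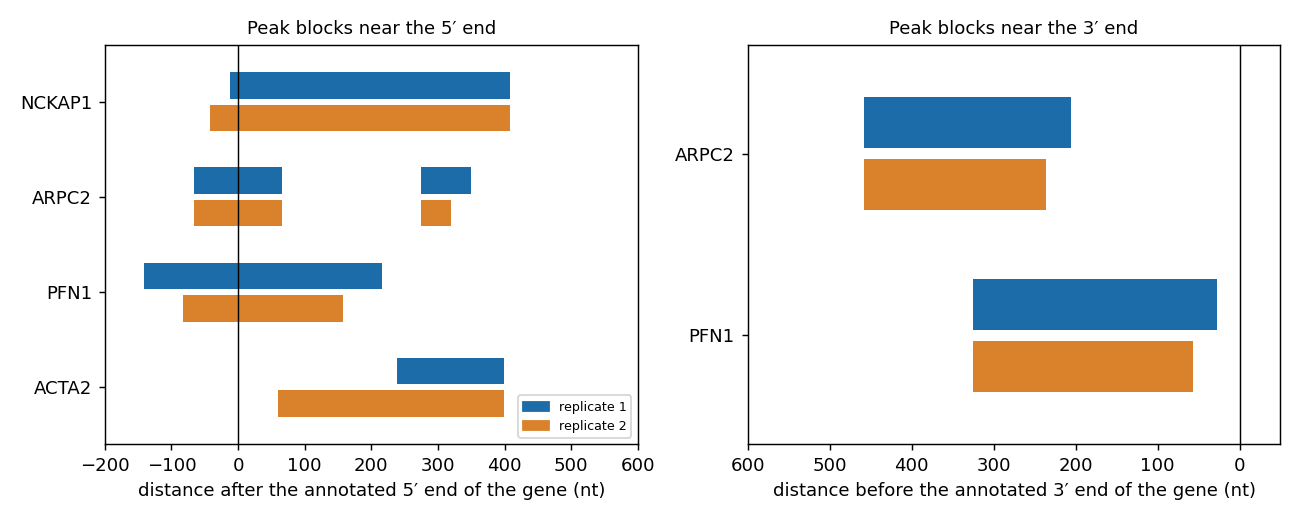
Blocks of the peaks as distance in nt after the annotated 5' end (left) or before the annotated 3' end (right) of each gene, with replicate 1 above replicate 2. The NCKAP1, ARPC2 and PFN1 peaks cross the 5' end, whereas the ACTA2 block begins 239 nt after it in replicate 1 and 60 nt after it in replicate 2; the downstream block of ACTA2 and the first block of the 3' peak of ARPC2 lie outside the axes.

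NCKAP1, the WAVE complex scaffold, had a single peak at its 5' end and the highest folds of the 4 genes. The peak was one unspliced block on chromosome 2 (minus strand, GRCh38), from 183038050 to 183038469 in replicate 1 and to 183038499 in replicate 2. Its fold was 19.0 in replicate 1 and 19.0 in replicate 2, rank 63 of 3355 and rank 86 of 4747 peaks. It was also long, 420 nt and 450 nt against a median of 151 nt in both lists, and reached 407 nt into the gene in each. The -log10 p was 15.1 in replicate 1 and 15.9 in replicate 2, higher than or equal to 85.9% and 90.2% of peaks. The 2 folds are equal to the digits deposited, but folds recur in the lists. In replicate 2, 27 peaks hold the value 19.0, which is 3 times the commonest fold of that list (6.33, at 196 peaks), whereas in replicate 1 the NCKAP1 peak alone has it. Among the other peaks of the 4 genes, the fold of the ARPC2 5' peak in replicate 2 occurs at 26 peaks of that list and that of the PFN1 5' peak in replicate 1 at 36.

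ARPC2, the Arp2/3 subunit, had a spliced peak at the 5' end and another on the 3' side, and the 3' peak was among those with the smallest p in both lists. The 5' peak lay on chromosome 2 (plus strand) from 218217123 to 218217538 in replicate 1 and to 218217508 in replicate 2. Its first block of 132 nt was the same in both lists, a gap of 208 nt followed, and the second block measured 76 nt and 46 nt. A second start that RefSeq lists for ARPC2, at 218217397, falls in that gap and not in a block. The 5' fold was 12.7 in replicate 1 and 5.54 in replicate 2, 2.29 times apart, while 93.0% of the 2128 shared peaks of all genes differed by that much or less on the log2 scale. The -log10 p of the 5' peak was 14.6 in replicate 1 and 8.70 in replicate 2. The first 64 nt of the 5' peak also lie within the span of LOC101928487, a non-coding RNA gene on the minus strand that had 0 peaks in either list.

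The 3' peak of ARPC2 ran from 218249878 to 218254142 in replicate 1 and to 218254112 in replicate 2. It joined 44 nt of one exon block across a gap of 3969 nt to 252 nt and 222 nt of a second block, which held 85.1% and 83.5% of its length. It stopped short of the annotated 3' end, by 206 nt in replicate 1 and 236 nt in replicate 2, and its midpoint lay 354 nt and 369 nt from that end. The fold was 10.9 in replicate 1 and 9.58 in replicate 2, which is 1.14 times apart. Its -log10 p was 265 and 212, rank 12 of 3355 peaks and rank 11 of 4747. Peaks away from both ends, the position class to which it belongs with a window of 200 nt, had median folds of 3.42 and 3.61, and the ARPC2 fold was at or above 96.1% and 92.6% of them.

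PFN1, the profilin gene, had one unspliced peak at each end, and the 5' peak had the higher fold in both lists. The 5' peak lay on chromosome 17 (minus strand) from 4948315 to 4948671 in replicate 1 and from 4948374 to 4948612 in replicate 2, so that it was 357 nt and 239 nt long with its midpoint at 4948493 in both. Its fold was 4.24 in replicate 1 and 3.74 in replicate 2, near the medians of all peaks (3.71 and 3.87) and below the medians of 5'-end peaks (4.95 and 4.92). The -log10 p was 20.8 and 13. The 3' peak ran from 4945680 in replicate 1 and 4945709 in replicate 2 to 4945976 in both, and stopped 28 nt and 57 nt before the annotated 3' end. Its fold was only 1.53 in replicate 1 and 1.42 in replicate 2, at or above 7.24% and 3.05% of peaks, yet its -log10 p of 34.5 and 23.1 was larger than that of the 5' peak. The lowest folds of the 4 genes thus stood beside a -log10 p at or above that of 94.2% and 93.8% of peaks. The annotated span is 2879 nt, the shortest of the 4 genes.

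**Figure D2:**
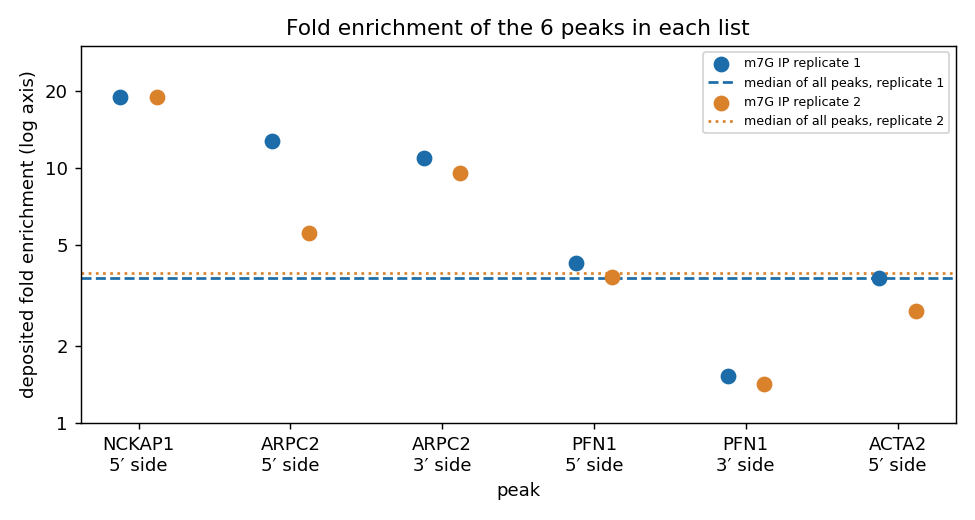
Deposited fold enrichment (log axis) of the 6 peaks of NCKAP1, ARPC2, PFN1 and ACTA2 in each m7G IP sample, with the median of all peaks of that list as a line. NCKAP1 and both ARPC2 peaks lie above the medians of 3.71 and 3.87 in both lists, and the 3' peak of PFN1 lies lowest, at 1.53 and 1.42.

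ACTA2, the smooth muscle actin gene, had 1 spliced peak whose blocks lay 41985 nt apart. The block nearer to the 5' end covered 88990939 to 88991098 on chromosome 10 (minus strand) in replicate 1 and 88990939 to 88991277 in replicate 2, and the downstream block covered 88948874 to 88948953 and 88948904 to 88948953. The upstream block held 66.7% of the peak's 240 nt in replicate 1 and 87.1% of its 389 nt in replicate 2. RefSeq lists a distal start for this gene at 88991337 and a proximal start at 88952773. The upstream block began 239 nt and 60 nt after the distal start, and the gap between the blocks contains the proximal start, the downstream block beginning 3820 nt after it. Both edges of the gap were the same in the lists. Whether the authors' blocks follow reads across a junction or the exons of an annotation is not given in the sources used here. Among spliced peaks, 2.93% of 886 in replicate 1 and 3.51% of 1338 in replicate 2 had a gap at least as long, and the median gap was 1299 nt and 1398 nt.

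The fold of the ACTA2 peak was 3.69 in replicate 1 and 2.74 in replicate 2, 1.35 times apart and at or above 47.9% and 27.3% of peaks. Its -log10 p was 23.8 and 11.2. The upstream block lies within the span of FAS, a death receptor gene on the plus strand, which had 0 peaks in either list; the libraries were stranded, per the labels. Of 16 markers of smooth muscle, stellate and endothelial cells, ACTA2, picked with its peak already known, was the only gene with a peak. TAGLN, MYH11, DES and COL1A1 were among the 15 with none. Of 12 hepatocyte markers, 7 had peaks in both lists, including APOA1 and APOE, and ALB, TTR, FGA, FGB and HNF4A had none. A peak depends on enrichment as well as on RNA level, so these counts do not measure the level of a marker. The share of all annotated genes with a peak was not computed as a background, so the marker sets were not compared. Actin genes encode near-identical proteins from similar coding sequences, and reads that could fall on several of them cannot be told apart from the lists. ACTB, a cytoplasmic actin, had a peak of 3 blocks with folds of 1.67 in replicate 1 and 1.64 in replicate 2, and ACTG1, the other cytoplasmic actin, had a shared peak with folds of 1.48 and 1.24.

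The 4 genes were then set side by side across the lists. All 6 peaks of replicate 1 overlapped a replicate 2 peak of the same gene by at least 50% of the shorter peak, as did 65.1% of all replicate 1 peaks and, in the other direction, 45.4% of all replicate 2 peaks. Over all genes with a peak in either list, 45.3% had such a shared peak; the 4 genes were picked as recurrent, so their count says nothing about them. The shorter peak was covered entirely for 5 of the 6 pairs and to 87.5% for ACTA2. The longer peak was covered to between 54.0% for ACTA2 and 93.3% for NCKAP1. Edges that differed between the lists did so by 29, 30, 59 or 179 nt. Over 1326 unspliced shared pairs of all genes, 96.1% of the edges that moved did so by a multiple of 30 nt, within 1 nt, so the lists place an edge to steps of 30 nt.

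At 5 of the 6 shared peaks the fold was higher in replicate 1, and at NCKAP1 it was equal. Of all 2128 shared peaks 44.5% were higher in replicate 1. The median log2 difference, replicate 2 minus replicate 1, was -0.18 for the 6 peaks (range -1.20 to 0) and 0.05 for all shared peaks (interquartile range -0.25 to 0.39). The order of the folds was NCKAP1 first and the PFN1 3' peak last in both lists. The neighbours in between changed places, since the 5' peak of ARPC2 was above its 3' peak in replicate 1 and below it in replicate 2. In mean and SD (n = 2) the folds were 19.0 ± 0 for NCKAP1, 9.12 ± 5.06 for the 5' peak of ARPC2, 10.2 ± 0.933 for its 3' peak, 3.99 ± 0.354 for the 5' peak of PFN1, 3.22 ± 0.672 for ACTA2 and 1.48 ± 0.0778 for the 3' peak of PFN1. In PFN1 the 5' fold was above the 3' fold in both lists. An SD of 2 values from lists of unknown depth measures no spread between cultures, so the SDs were not used to compare peaks. Within each list the 5' peak of PFN1 had a higher fold than ACTA2, 4.24 against 3.69 in replicate 1 and 3.74 against 2.74 in replicate 2. The difference was not tested.

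**Figure D3:**
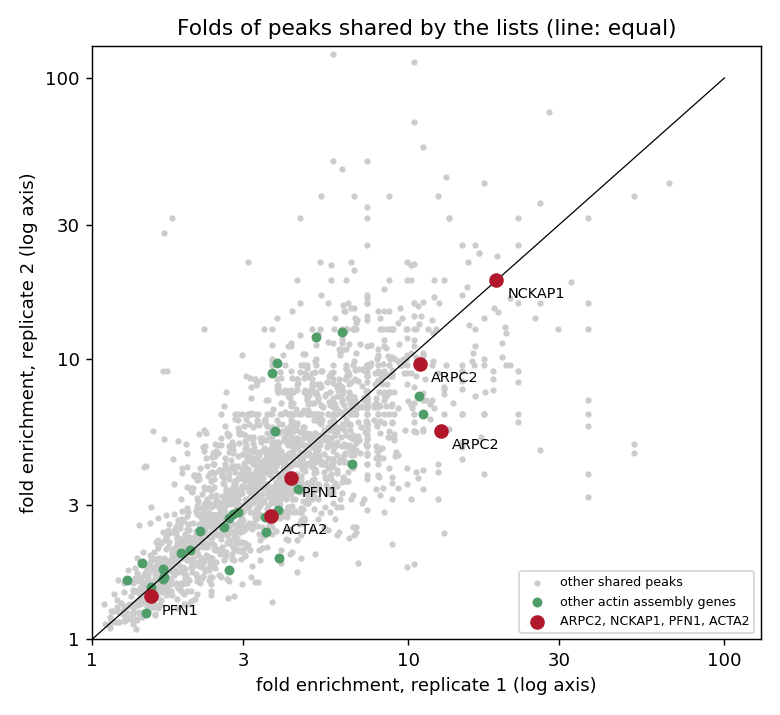
Fold enrichment in replicate 1 (x axis) and replicate 2 (y axis) of the peaks shared by the lists, both axes logarithmic, with the line of equal folds. The 4 genes are in red and other actin assembly genes in green; NCKAP1 lies on the line at 19.0 and the 5' peak of ARPC2 lies below it at 12.7 and 5.54.

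With a window of 200 nt between a peak's midpoint and the end of the gene's span, 3 of the 6 peaks in each list lay at the 5' end, those of NCKAP1, ARPC2 and PFN1, against 27.4% of all peaks in replicate 1 and 21.8% in replicate 2. The midpoint of NCKAP1 was just inside the window, at 197 nt and 182 nt, and that of ACTA2 outside it, at 358 nt and 254 nt. At the 3' end lay 1 of the 6 peaks, that of PFN1 at 176 nt and 191 nt, against 3.43% and 3.46% of all peaks. Spliced peaks were 3 of the 6, both of ARPC2 and that of ACTA2, against 26.4% and 28.2% of all peaks.

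With a window of 500 nt, PFN1 and ARPC2 had peaks near both ends in both lists, whereas with 200 nt PFN1 remained among 13 such genes and ARPC2 did not. In PFN1 the 5' fold was 2.77 times the 3' fold in replicate 1 and 2.63 times in replicate 2. In ARPC2 the 5' fold was 1.17 times the 3' fold in replicate 1 and 0.578 times in replicate 2, so its direction was not the same in the lists. Genes with a peak midpoint within 500 nt of each end numbered 77 in replicate 1 and 102 in replicate 2, with 46 in both. The 5' fold was the higher one in 76.6% and 71.6% of them, and the median log2 ratio of 5' over 3' fold was 0.61 (interquartile range 0.06 to 1.25) and 0.64 (-0.04 to 1.25). The log2 ratio of PFN1, 1.47 and 1.40, was at or above 83.1% and 80.4% of these genes. That of ARPC2, 0.22 and -0.79, was at or above 33.8% and 5.88%. Having more than 1 peak was not rare, at 23.9% of genes in replicate 1 and 30.2% in replicate 2.

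**Figure D4:**
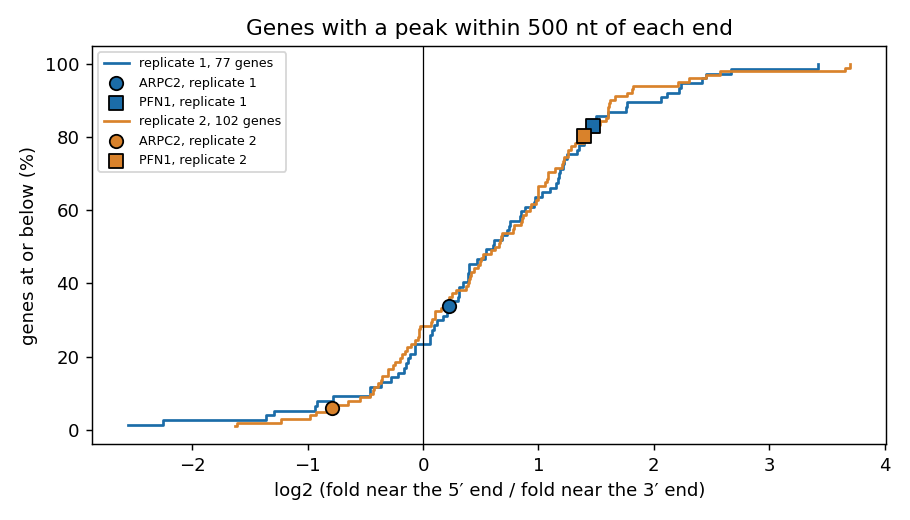
Cumulative share of genes (%) by the log2 ratio of the fold near the 5' end over the fold near the 3' end, for 77 genes of replicate 1 and 102 of replicate 2 with a peak within 500 nt of each end. PFN1 (squares) lies at 1.47 and 1.40, and ARPC2 (circles) at 0.22 in replicate 1 and -0.79 in replicate 2.

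The other genes of actin assembly were described from a list of 105 genes in 9 roles, the 4 genes included. Peaks in both lists were found in 24 of them, 2 had peaks in replicate 1 only, 17 in replicate 2 only and 62 had none. Without the 4 genes, 20 of the 39 with any peak had peaks in both lists (51.3%, 95% Wilson interval 36.2 to 66.1%, counting error only), which is close to the 51.7% of all genes with a peak. Their peaks had a median fold of 2.84 in replicate 1 and 2.80 in replicate 2, against 3.71 and 3.87 for the peaks of genes outside the list. At the 5' end lay 23.5% and 26.4% of their peaks. The lists hold no expression values, so missing m7G and missing mRNA cannot be told apart for a gene with no peak. The share of all annotated genes with a peak was not computed. Counts of genes with any peak, in the whole list or in a role, therefore have no background.

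Around ARPC2 in the Arp2/3 complex, 5 of 10 genes had a peak. ACTR3, which encodes the actin-related subunit Arp3, had a 5'-end peak with folds of 11.1 in replicate 1, a value at 25 peaks of that list, and 6.33 in replicate 2, the commonest fold of that list. ARPC4 had folds of 2.71 and 2.71. ACTR2, for the partner subunit Arp2, had a peak in replicate 2 only, with a fold of 3.95, and ARPC5L in replicate 1 only, with 5.77. Around NCKAP1 in the WAVE complex, 4 of 11 genes had a peak and NCKAP1 was the only one in both lists. Peaks in replicate 2 only were found in ABI2, an Abl-interacting subunit (31.6), and in the WAVE proteins WASF2 (4.92) and WASF3 (5.62). Of the 15 genes of the WASP family and other activators of Arp2/3, 12 had no peak in either list. WASL, WIPF2 and JMY had peaks in replicate 2 only, so of the 3 genes with a peak none had peaks in both lists. A count of 3 is too small to set against a share of all genes. Of all genes with a peak in either list, 51.7% had peaks in both.

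**Figure D5:**
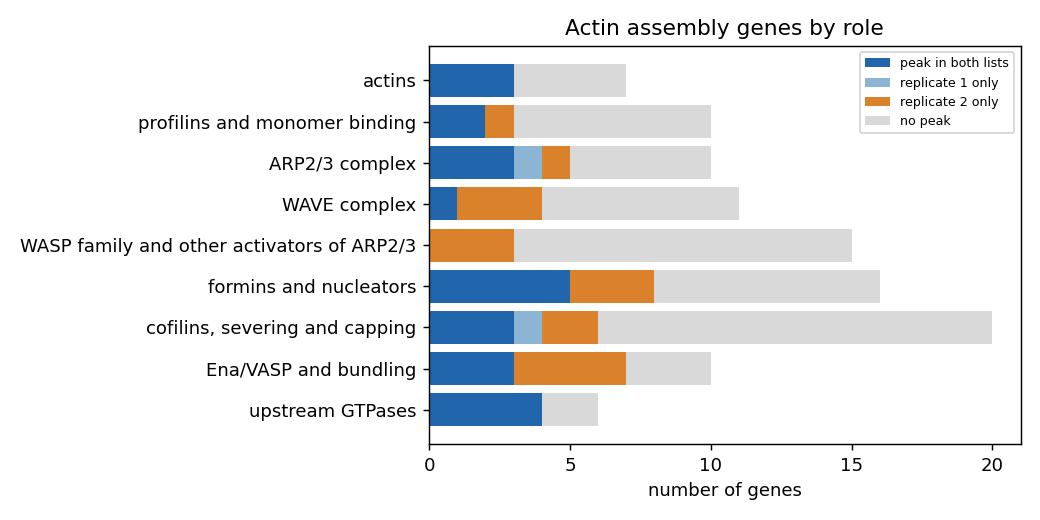
Number of genes in each role of actin assembly by where they had a peak. Of the 9 roles, formins and nucleators had peaks in both lists in 5 of 16 cases, with 8 having none. The WASP family and other activators had them in 0 of 15, with 12 having none. Actins had them in 3 of 7 cases and upstream GTPases in 4 of 6. Of genes with a peak in either list, these are 5 of 8, 0 of 3, 3 of 3 and 4 of 4 in turn. Over all such genes in the lists, 51.7% had peaks in both.

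Beside PFN1, the genes that handle actin monomers gave TWF2, twinfilin, with folds of 2.89 and 2.84, and TMSB10, a thymosin that holds monomers, with 1.34 in replicate 2. Formins and other nucleators, which start unbranched filaments, had a peak in each list in 5 of 16 cases and in neither list in 8. Their highest shared folds in replicate 1 were 10.8 for INF2, 6.64 for SPIRE1 and 6.18 for FMNL2, with 7.38, 4.22 and 12.4 in replicate 2. DIAPH1 had 3.71 and 8.86, SPIRE2 had 3.85 and 9.64, and FHOD1 had 38.0 in replicate 2 only. The folds of ABI2 and FHOD1 are, within rounding, 5 and 6 times the commonest fold of replicate 2 and occur at 17 and 16 of its peaks. Among cofilins and capping proteins, CFL1, which severs filaments, had folds of 1.91 and 2.03, and CAPZB, a subunit of the protein that caps filament ends, had 3 shared peaks, the highest with 4.48 and 3.44. Among bundling proteins and regulators of filament tips, FLNA had 3.53 and 2.73, ACTN4 had 3.80 and 5.54, and VASP had 1.69 and 1.67. The upstream GTPases RAC1, which acts on the WAVE complex, and RHOA had 5'-end peaks with folds of 2.71 and 1.76 and of 3.89 and 1.94. RHOB (2.61 and 2.51) and ARF6 (5.10 and 11.9) had peaks outside the 200 nt window of the 5' end but within that of 500 nt. Their midpoints lay 219 nt in replicate 1 and 249 nt in replicate 2 from the 5' end for RHOB. For ARF6 they lay 362 nt and 317 nt from it.

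The shared peaks of other genes most like those of the 4 genes were found by the distance between the 2 log2 folds, over the 2 lists, among shared peaks of the same position and block class. Nearest to NCKAP1 were THOC6 (folds 19.1 and 23.2) and NELFB (15.5 and 22.0), at distances of 0.29 and 0.36. Nearest to the 5' peak of ARPC2 were GPAA1 (11.7 and 6.07) and PCMTD2 (14.8 and 5.06), and nearest to its 3' peak were MKNK2 (11.0 and 9.73) and LRCH4 (9.65 and 9.94). CUL3 (4.15 and 3.75) and U2AF2 (4.15 and 3.71) came nearest to the 5' peak of PFN1, and HMGA1 (1.48 and 1.45) and BSG (1.57 and 1.49) to its 3' peak. For ACTA2 they were MYH9 (3.56 and 2.79), which encodes a nonmuscle myosin heavy chain, and SLC2A4RG (3.68 and 2.62). With only 2 lists, this likeness covers just the 2 folds.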

How the data were processed

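HepG2 poly(A) RNA went into stranded mRNA libraries, 2 of input and 2 of m7G immunoprecipitates, per the labels' protocols. The submitters' processing notes name STAR and GRCh38 with no role; for the peak caller and its filters, nothing is stated in the labels or headers. Each deposited list belongs to 1 IP sample and gives, per the file headers, a p-value, log10 p, log10 FDR (both treated as scores, since they run past the range of a log column) and a fold enrichment ratio per peak, all the authors' own. Because the deposited p-value is listed as 0 for 9 and 4 peaks, ranks used the log10 p score, which elsewhere equals the logarithm of the p-value to within 0.02.

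Gene spans came from the RefSeq table of GRCh38.p14, found by current symbol or by a synonym that overlapped the peak; 3 and 8 peaks had no match and were left out of positions. Distances are genomic, from a peak's midpoint along its blocks to an end of the span. Peaks were shared when they overlapped by at least 50% of the shorter in the same gene and strand. RefSeq start windows were found for 4 of 4 genes. No exon models were used.

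The 4 genes and all gene lists were chosen with earlier results of these data known. Named genes are the 4, actin-list genes with a peak, and the 2 nearest shared peaks per peak outside that list; some marker genes are not reported here. The overlap and midpoint steps were run on simulated data, where 1006 of 1006 planted shared peaks were recovered among 3355. Recovery was the same under each overlap rule, so this check cannot show how the rules treat peaks with moved edges. In the real lists, 10.3% of all shared peaks had both edges the same. Alternatives were other overlaps, windows, stricter peaks, other rank bases and each list alone. The tools were Python 3.11.15 with numpy 2.4.6 and pandas 2.3.3 for tables, scipy 1.17.1 for intervals, and matplotlib 3.10.9 for plots.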

Additional observations from a re-analysis of the deposited data

How the results depend on the processing

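All 4 genes kept a shared peak when 1 base of overlap sufficed and when only the better 50% of peaks by p was kept in each list; with 80% of both peaks it was 3 genes, since ACTA2 was lost, and 4 of the 6 peaks. The peaks at the 5' end numbered 3 per list in each list alone, so that leaving out either replicate gave 3; they were 2 with a window of 100 nt, without NCKAP1, and 4 with one of 500 nt, with ACTA2. By the peak base nearest to the 5' end they averaged 3.5 per list, since ACTA2 then counted in replicate 2 (60 nt) and not in replicate 1 (239 nt). The median log2 difference of the folds was -0.15 with 80% overlap of both peaks, against -0.18. Of the actin assembly genes, 24 had peaks in both lists and 24 a shared peak, but 9 when 80% of both peaks had to overlap, fewer by construction, and 16 among the peaks with the smallest p. The median percentile of the 12 folds within their lists was 65.6, and 56.5 among peaks of the same position class; the cause was not tested. No paired analysis was possible because input values were not analysed here and only the IP samples had peak lists. Depth, which the lists do not give, sets what could be called.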
